A study of Mus musculus with 12 samples.

Results

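The genes Tnfrsf26, Tnfrsf22 and Tnfrsf23 lie next to each other on mouse chromosome 7 and encode members of the TNF receptor family. They were taken by their symbols from a table of 13283 genes, and all 3 were present. They were measured by RNA sequencing in cytotoxic T lymphocytes (CTL), the killer form of CD8 T cells, in 12 libraries that fell into 4 groups of 3. The cells came from lymph nodes or spleens of female mice aged 11 to 27 weeks. Activation through CD3 and CD28 lasted 48 h, and the culture medium held 20 ng/mL of IL-2 with 2 ng/mL of IL-12. WT cells had the genotype GzmB cre+, that is, a Cre recombinase under the granzyme B promoter with intact Foxo1. FOXO1-GFP KO cells had the genotype FOXO1-GFPfl/fl Gzmb cre+, in which the same Cre removes a floxed exon of Foxo1 once the T cell becomes an effector, so that both genotypes carried the transgene. The WT and FOXO1-GFP KO groups were cultured with the vehicle DMSO, and the WT+PI3Kdi and FOXO1-GFP KO+PI3Kdi groups with 10 µM IC87114, an inhibitor of the p110δ subunit of phosphoinositide 3-kinase, for 24 h. All cells were sorted as live and CD8+, but the FOXO1-GFP KO cells were also sorted as GFP-, so genotype and this extra gate cannot be told apart.

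The ligand TRAIL (Tnfsf10) kills cells through the death receptor Tnfrsf10b, whose intracellular death domain recruits FADD and caspase 8. The products of Tnfrsf22 and Tnfrsf23 are mouse decoy receptors: they bind TRAIL but have no working death domain. Tnfrsf26 encodes a related receptor that also has no death domain. The cluster lies beside the imprinted genes around Kcnq1ot1 and Cdkn1c. FOXO1 is a transcription factor that the PI3K and AKT pathway keeps out of the nucleus, so that inhibition of p110δ lets it return there.

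The members were chosen from these data. Tnfrsf26 was among the mRNAs with the largest rise with PI3Kdi in both genotypes, Tnfrsf23 was among those with the largest fall in FOXO1-GFP KO against WT without PI3Kdi, and Tnfrsf22 was added as the gene between them. Values in those comparisons are therefore given as a description with no test. Tests are given for FOXO1-GFP KO+PI3Kdi against WT+PI3Kdi, although all of its libraries took part in the choice of Tnfrsf26. For Tnfrsf23 the choice used the vehicle libraries, which deviated together with same-numbered PI3Kdi libraries. The adjusted p values of Tnfrsf26 and Tnfrsf23 are therefore not independent of their choice. The difference of the PI3Kdi responses between genotypes is made of the values that chose Tnfrsf26 and Tnfrsf23, so it is tested for Tnfrsf22 alone.

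All 3 genes are on the minus strand of GRCm38. Tnfrsf26 (ENSMUSG00000045362) spans chr7:143607659-143628722, Tnfrsf22 (ENSMUSG00000010751) chr7:143634806-143649661 and Tnfrsf23 (ENSMUSG00000037613) chr7:143665809-143685872. Together they cover 78.2 kb. Their coding sequences are 615 bases in Tnfrsf26, 597 in Tnfrsf22 and 531 in Tnfrsf23. The coding sequences of Tnfrsf22 and Tnfrsf23 were 90.8% identical over 531 aligned bases, whereas Tnfrsf26 was 72.5% identical to Tnfrsf22 and 68.6% identical to Tnfrsf23. The description of the cluster as near-identical neighbours thus held for Tnfrsf22 and Tnfrsf23 but not for Tnfrsf26.

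A stretch of 28 coding bases, the longest one without gaps in a single exon that could be aligned in all 3 genes, shows how far apart the members are. It lies in exon 5 of each gene, at chr7:143614872-143614899 in Tnfrsf26, chr7:143639919-143639946 in Tnfrsf22 and chr7:143669999-143670026 in Tnfrsf23. Capitals mark the 6 positions not shared by all 3 genes, at which Tnfrsf22 and Tnfrsf23 had the same base.
Tnfrsf26: aatgcaaTGccacaATGGacactgtgtg
Tnfrsf22: aatgcaaCTccacaGCTAacactgtgtg
Tnfrsf23: aatgcaaCTccacaGCTAacactgtgtg

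The decoy receptor genes were further compared over 129 coding bases of exon 3, at chr7:143643276-143643404 in Tnfrsf22 and chr7:143679945-143680073 in Tnfrsf23. This stretch is shown because it contains the bases by which a read can be assigned to one of the pair. Capitals mark the 8 bases that differ.
Tnfrsf22: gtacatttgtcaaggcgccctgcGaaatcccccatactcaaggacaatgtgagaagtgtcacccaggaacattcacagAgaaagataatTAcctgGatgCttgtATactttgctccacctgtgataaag
Tnfrsf23: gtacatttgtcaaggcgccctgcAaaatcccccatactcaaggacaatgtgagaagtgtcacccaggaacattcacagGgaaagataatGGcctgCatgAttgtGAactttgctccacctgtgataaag

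Over all annotated transcripts, Tnfrsf22 and Tnfrsf23 shared 527 words of 75 bases, the length of 1 read. These were 12.6% of the words of Tnfrsf22 and 13.1% of those of Tnfrsf23. A fragment with both ends in such words maps to more than one place and is not counted by STAR, so the levels of these genes rest on the rest of their transcripts. Tnfrsf26 shared no word of 75, 50 or 25 bases with the other two. A further 8.21% of the words of Tnfrsf22 occurred in genes outside the cluster. The counts of Tnfrsf22 and Tnfrsf23 are therefore less certain than those of Tnfrsf26.

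**Figure D1:**
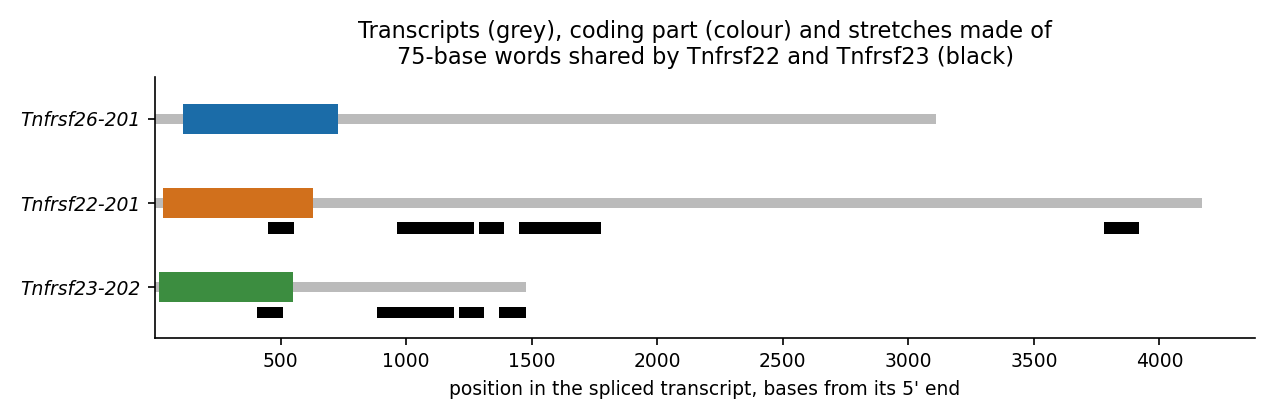
Transcripts of the 3 genes drawn to scale in bases from the 5′ end, with the coding part in colour and, in black, the stretches built from 75-base words that Tnfrsf22 and Tnfrsf23 share. Most of the shared sequence lies 3′ of the coding part, and Tnfrsf26 has none.

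Foxo1 was measured first as the check of the genotypes. In FPKM (fragments per kilobase of exon, scaled to library size), its range was 5.77 to 9.99 for WT and 5.84 to 10.46 for WT+PI3Kdi. For FOXO1-GFP KO it was 0.58 to 1.44 and for FOXO1-GFP KO+PI3Kdi 0.61 to 1.75, so every library matched its label. Depth was 12.9 to 48.0 M reads per library. The 9 marker genes of CD8 T cells and CTL were all present, and Cd8a was 139 to 253 FPKM. Of markers of other cells, the table held 3 of 4 CD4 T cell genes (summed level 4.96 to 8.24 FPKM), 4 of 9 myeloid genes (15 to 27.2 FPKM), 2 of 4 NK cell genes (84.1 to 114 FPKM) and 1 of 4 fibroblast genes (0.06 to 0.20 FPKM). The NK cell sum was mostly Eomes (81.8 to 112 FPKM), which the study counts among key CD8 T cell transcription factors. The other NK cell gene, Klrb1c, was 1.94 to 4.81 FPKM. The myeloid sum was mostly Cd68 (14.5 to 26.95 FPKM).

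Tnfrsf26 was the most abundant of the 3 mRNAs in all 12 libraries. Its level was 11.20, 9.51 and 9.03 FPKM in WT and 20.87, 19.65 and 20.75 FPKM in WT+PI3Kdi. In the absence of FOXO1 it was 4.0, 4.30 and 4.93 FPKM without and 7.77, 9.10 and 9.82 FPKM with the inhibitor. The libraries with PI3Kdi thus lay above those without it in both genotypes, and each FOXO1-GFP KO group lay below its WT counterpart. The ratio of the group means with and without PI3Kdi was 2.06 for WT cells and 2.02 for FOXO1-GFP KO cells, from a lower starting level in the cells without FOXO1. The inhibited FOXO1-GFP KO cells, at 8.90 ± 1.04 FPKM (SD, n = 3), overlapped uninhibited WT cells, at 9.91 ± 1.14 FPKM. These values rest on 204 to 1469 reads per library.

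Tnfrsf23, the more abundant decoy receptor, was at 3.14, 2.16 and 1.62 FPKM in WT and at 5.38, 5.10 and 6.49 FPKM in WT+PI3Kdi. The FOXO1-GFP KO libraries had 0.33, 0.52 and 0.39 FPKM, and inhibited knockout libraries 0.65, 1.27 and 0.73 FPKM. The 4 groups did not overlap, and their order was WT+PI3Kdi, WT, FOXO1-GFP KO+PI3Kdi, FOXO1-GFP KO. The last pair was separated by only 0.13 FPKM between their nearest libraries, less than the SD of 0.34 FPKM in FOXO1-GFP KO+PI3Kdi. The ratio of the means with and without PI3Kdi was 2.45 for WT cells and 2.14 for FOXO1-GFP KO cells, but the inhibited cells without FOXO1 stayed below uninhibited WT cells. The lowest library held 20 reads of Tnfrsf23 and the highest 411.

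Tnfrsf22, the other decoy receptor, was the least abundant in 11 of 12 libraries. Its level was 1.24, 1.46 and 1.0 FPKM in WT and 2.68, 2.46 and 2.85 FPKM in WT+PI3Kdi. The FOXO1-GFP KO libraries had 0.65, 0.42 and 0.31 FPKM, and inhibited knockout libraries 0.57, 0.69 and 0.36 FPKM. PI3Kdi libraries lay above vehicle libraries in WT, with a ratio of means of 2.16, whereas in FOXO1-GFP KO the groups overlapped, with a ratio of 1.17. In the cells without FOXO1 the mRNA was 0.877, 1.64 and 1.16 times the vehicle level in the pairs of libraries numbered 1, 2 and 3. The lowest library held 17 reads, whose counting error alone is 24.4%.

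**Figure D2:**
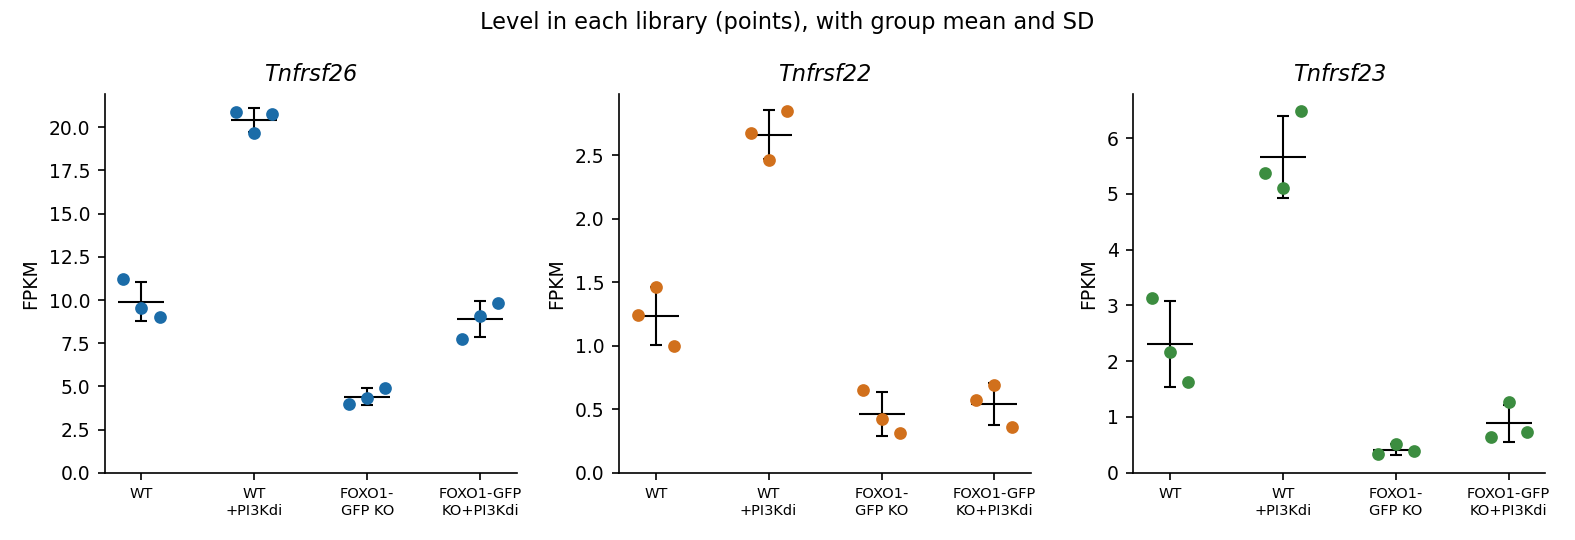
FPKM of each receptor in every library (points) by group, with the group mean and SD (black, n = 3); each panel has its own axis from 0. All 3 mRNAs were highest in WT+PI3Kdi, and Tnfrsf22 stayed between 0.31 and 0.69 FPKM in both groups without FOXO1.

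Fold changes were fitted with limma to log2(FPKM + 0.1) of all genes. With PI3Kdi in WT, log2 fold changes were 1.04 ± 0.12 (SE) for Tnfrsf26, 1.06 ± 0.26 for Tnfrsf22 and 1.30 ± 0.28 for Tnfrsf23. All 3 members had higher libraries without overlap, which was so for 4.43% of all genes, a share from which nothing is read because this contrast chose the members. In FOXO1-GFP KO the same treatment gave 0.99 ± 0.12, 0.20 ± 0.26 and 0.90 ± 0.28. Here 2 of 3 members had higher libraries without overlap, against 5.28% of all genes. FOXO1-GFP KO against WT without inhibitor gave -1.15 ± 0.12 for Tnfrsf26, -1.28 ± 0.26 for Tnfrsf22 and -2.20 ± 0.28 for Tnfrsf23. All 3 were lower without overlap, against 6.79% of all genes. Nothing is read from the shares of 5.28% and 6.79% either, because values in these contrasts also took part in the choice. The pseudocount of 0.1 FPKM shrinks the changes of Tnfrsf22 and Tnfrsf23, which are at low levels, more than those of Tnfrsf26.

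The loss of FOXO1 was tested in inhibited cells, the condition that lets FOXO1 return to the nucleus. The study already lists all 3 receptors as FOXO1 dependent from this contrast of the same libraries, so the tests here are a refit. In FOXO1-GFP KO+PI3Kdi against WT+PI3Kdi, all 3 receptors fell. Tnfrsf23 fell by 2.59 ± 0.28 on the log2 scale (adjusted p = 0.000963), Tnfrsf22 fell by 2.14 ± 0.26 (adjusted p = 0.00202) and Tnfrsf26 fell by 1.20 ± 0.12 (adjusted p = 0.000831; limma with Benjamini-Hochberg adjustment over 13283 genes). As ratios of group means, WT+PI3Kdi was 6.40 times FOXO1-GFP KO+PI3Kdi for Tnfrsf23, 4.93 times for Tnfrsf22 and 2.30 times for Tnfrsf26. An mRNA was called when the adjusted p was under 0.05 and the fold change over 1.5. All 3 members were called lower, against 1.02% of all genes (1.45% were called in either direction). For each member the 3 knockout libraries lay below the 3 WT libraries, which was so for 7.9% of all genes. Tnfrsf26 and Tnfrsf23 were chosen on related values, so nothing is read from these shares. In bulk RNA, fewer cells that express a receptor and less of its mRNA per cell cannot be told apart.

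The sum of the B cell genes in the table, Cd79b and Ighm (2 of 8 listed), also differed with genotype. Over all 12 libraries Ighm ran from 1.64 to 12.98 FPKM and Cd79b from 1.96 to 4.49 FPKM. Their summed level ran from 11.1 to 13.9 FPKM over the WT libraries and from 13.9 to 17.3 FPKM over those of WT+PI3Kdi. Without FOXO1 the ranges were 4.31 to 6.59 FPKM (vehicle) and 4.31 to 6.36 FPKM (PI3Kdi). Ms4a1, Cd79a and Pax5 were among the B cell genes without a row in the table. The part of B cell RNA in the fall of the receptors was not tested.

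The question of whether FOXO1 is needed for the response to PI3Kdi is addressed by the difference of the responses, FOXO1-GFP KO minus WT. For Tnfrsf26 this was -0.05 ± 0.18 on the log2 scale, a value near 0 that the choice of this gene for its rise in both genotypes makes likely and from which nothing is read. For Tnfrsf23 it was -0.40 ± 0.39, also given as a description. For Tnfrsf22 it was -0.86 ± 0.36 (95% interval -1.65 to -0.07), with an unadjusted p of 0.0356 from limma but an adjusted p of 1.0. Neither Tnfrsf22 nor any other of the 13283 genes was called (0%), of which 200 had an unadjusted p under 0.05 by limma. When libraries of the same number were treated as pairs within a genotype, the SE for Tnfrsf22 was 0.22. Its unadjusted p was then 0.00238 (limma) and its adjusted p 0.164. In that fit 1435 of the 13283 genes had an unadjusted p under 0.05. It called 3 genes (0.0226%), namely Cd38, Slamf6 and Tbc1d4, which are named after their values were seen. The smaller response of Tnfrsf22 in the absence of FOXO1 thus did not pass the correction for all genes.

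**Figure D3:**
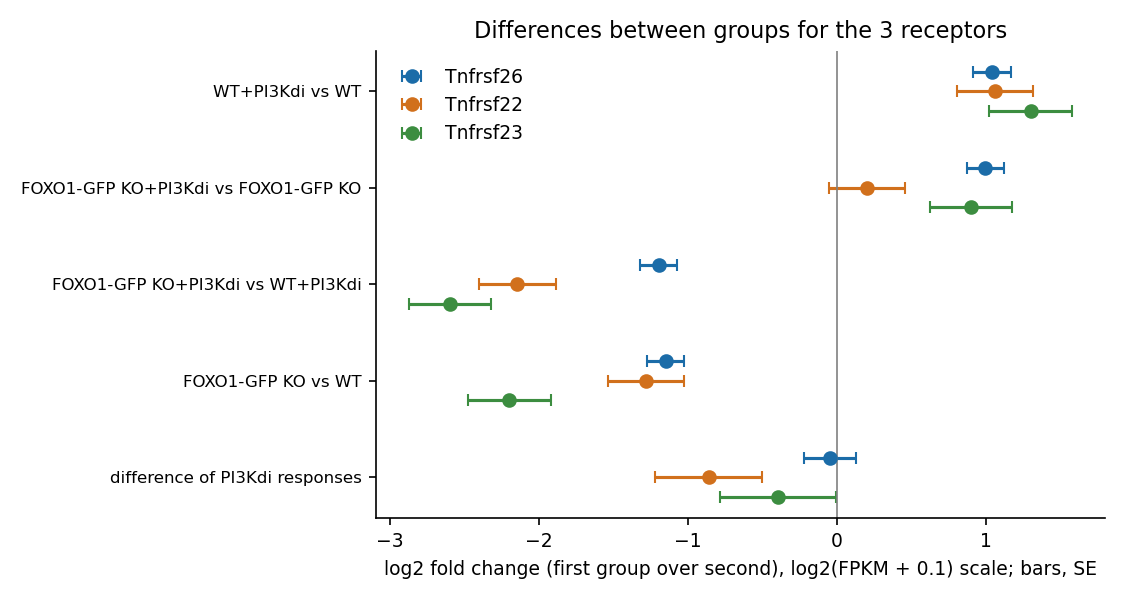
Log2 fold changes (points) with SE (bars) of the 3 receptors in each comparison; the last row is the PI3Kdi response in FOXO1-GFP KO minus that in WT. With PI3Kdi in WT the members lay between 1.04 and 1.30, whereas the losses without FOXO1 ran from -1.15 for Tnfrsf26 to -2.59 for Tnfrsf23.

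Ratios between members within a library do not depend on its depth. Each ratio holds Tnfrsf26 or Tnfrsf23, which were chosen on related values, so the ratios are given as a description. Tnfrsf26 exceeded Tnfrsf23 by 3.57, 4.40 and 5.57 times in WT and by 3.88, 3.85 and 3.20 times in WT+PI3Kdi. In the cells without FOXO1 the excess was 12.1, 8.27 and 12.6 times, and 12, 7.17 and 13.5 times with PI3Kdi. The knockout libraries thus all lay above the WT libraries, and the ranges with and without PI3Kdi overlapped in both genotypes. The tests used the log2 ratio of FPKM + 0.1, which draws the ratios of low genes together. On that scale the mean difference between FOXO1-GFP KO+PI3Kdi and WT+PI3Kdi was 1.40, and with a pseudocount of 0.01 FPKM, close to the plain ratios, it was 1.52.

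The excess of Tnfrsf26 over Tnfrsf22 was 7.28 to 7.99 times in WT+PI3Kdi and 13.2 to 27.3 times in FOXO1-GFP KO+PI3Kdi. The difference in log2 ratio of FPKM + 0.1 was 0.95. Without inhibitor these ranges were 6.51 to 9.03 times in WT and 6.15 to 15.9 times in FOXO1-GFP KO, and they overlapped. With a pseudocount of 1 FPKM the difference with PI3Kdi was 0.14; Tnfrsf22 was under 1 FPKM in all knockout libraries.

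Between the decoy receptors, Tnfrsf23 was 2.01, 2.07 and 2.28 times Tnfrsf22 in WT+PI3Kdi and 1.14, 1.84 and 2.03 times in FOXO1-GFP KO+PI3Kdi, ranges that overlapped. The difference in log2 ratio of FPKM + 0.1 was -0.45, and with a pseudocount of 0.01 FPKM it was -0.39. In FOXO1-GFP KO it was 0.508, 1.24 and 1.26 times, so that replicate 1 was the only library in which Tnfrsf22 exceeded Tnfrsf23. For each of the 3 log2 ratios of FPKM + 0.1, the two-sided exact permutation test between the groups with PI3Kdi gave p = 0.1, before and after adjustment over the 3, which is the smallest value that 3 libraries against 3 allow. The unequal change of the members therefore could not pass a threshold of 0.05 in this design. These p values are also not independent of the choice of Tnfrsf26 and Tnfrsf23, so nothing is read from them.

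**Figure D4:**
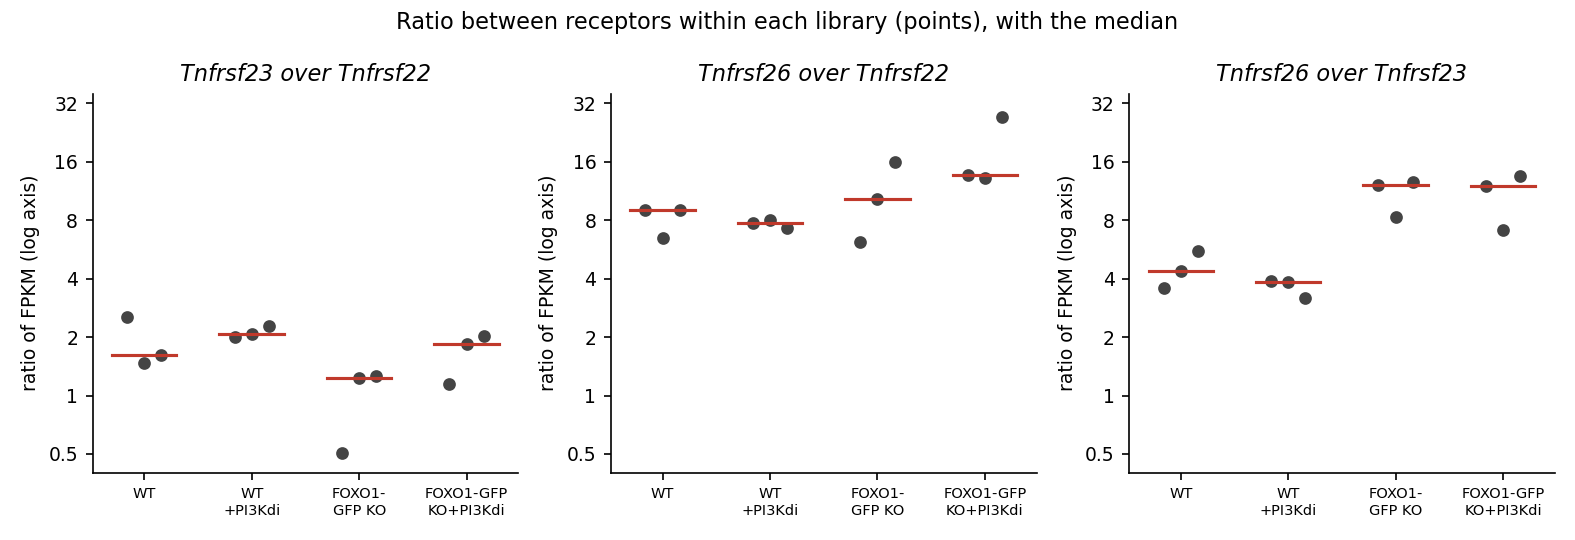
Ratio of the FPKM of 2 receptors within each library (points) by group, with the median (red), on a log axis shared by the panels. Tnfrsf26 over Tnfrsf23 was 3.20 to 5.57 in the 6 WT libraries and 7.17 to 13.5 in the 6 knockout libraries.

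None of the 4 genes directly beside the cluster was called in any contrast, in which 0% to 1.45% of all genes were called. Towards Kcnq1ot1, the nearest genes in the table were Cars, a cysteinyl-tRNA synthetase gene, with group means of 14.9 (WT), 12.5 (WT+PI3Kdi), 14.5 (FOXO1-GFP KO) and 13.2 FPKM (FOXO1-GFP KO+PI3Kdi), and Nap1l4, a histone chaperone gene, at 72.8, 69.7, 69.1 and 65.7 FPKM in the same order. On the other side, Osbpl5, a lipid transfer protein gene, was at 6.34, 7.65, 6.23 and 7.21 FPKM, and Mrgpre, a G protein-coupled receptor gene, at 0.683, 0.617, 0.687 and 0.743 FPKM. Their log2 fold changes ran from -0.25 to 0.27 with PI3Kdi in WT and from -0.10 to 0.20 between the genotypes with PI3Kdi. When libraries were paired, the limma adjusted p for PI3Kdi in WT was 0.0280 for Osbpl5 (0.27) and 0.0354 for Cars (-0.25). Both changes were under the fold change of 1.5 that a call needs.

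Of the 13 other genes in the table within 1 Mb, leaving out an antisense RNA described next, none was called by limma in any of the 5 contrasts, in which the share of all genes called was 0.0979% for the PI3Kdi response of WT, 0.0452% for that of FOXO1-GFP KO, 1.45% between inhibited and 0.331% between uninhibited genotypes, and 0% for the difference of responses. The largest differences between the genotypes were those of Cd81, a tetraspanin gene, at -0.79 with PI3Kdi, and Tspan32, another tetraspanin gene, at -0.79 without it. Their midpoints lay 586 and 634 kb from the centre of the cluster.

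An antisense RNA gene, E230032D23Rik (ENSMUSG00000109251, chr7:143628024-143670614, plus strand), runs through the cluster and was picked out after its values were seen. Its exons cover 107 exon bases of Tnfrsf26, 164 of Tnfrsf23 and none of Tnfrsf22. Whether strand was used in the counting is not stated, so at those bases reads of the receptors and of the antisense RNA cannot be told apart. Its level was 0.56, 0.34 and 0.44 FPKM in WT libraries and 0.62, 0.89 and 1.26 FPKM in those with PI3Kdi. Knockout libraries had 0.18, 0.14 and 0.27 FPKM with vehicle and 0.33, 0.39 and 0.33 FPKM with PI3Kdi. Its WT libraries thus overlapped those of FOXO1-GFP KO+PI3Kdi. Its group means were in the same order as those of all 3 receptors, on only 6 to 33 reads per library. In FOXO1-GFP KO+PI3Kdi against WT+PI3Kdi its log2 fold change was -1.14 ± 0.25, and it was not called (limma adjusted p = 0.0535). Over 19 alternatives its adjusted p ran from 0.0322 (without WT+PI3Kdi replicate 1) to 0.36 (with the pairs), and it was called under 3 of them. A pseudocount of 1 FPKM gave a log2 fold change of -0.50. Its response to PI3Kdi in WT was 0.88 ± 0.25, with an adjusted p of 0.405 by limma and of 0.0239, which was called, when libraries were paired.

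**Figure D5:**
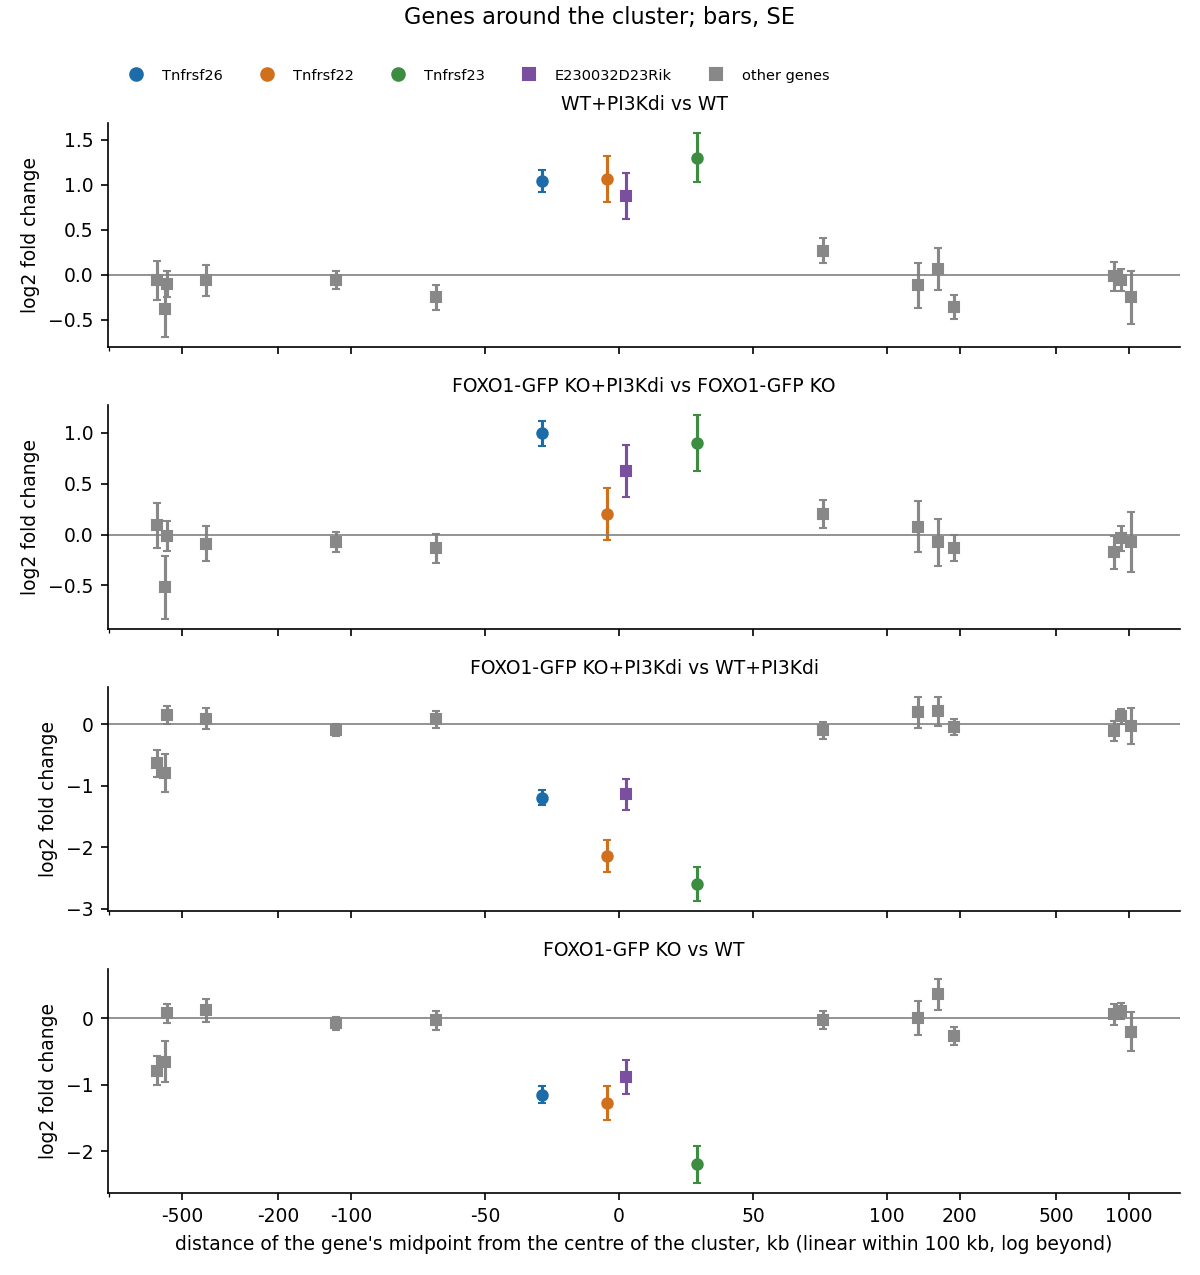
Log2 fold change with SE (bars) of the genes within 1 Mb of the cluster, by distance in kb of the gene's midpoint from the cluster's centre (linear to 100 kb, log beyond), in 4 comparisons. Between the genotypes with PI3Kdi the receptors and the antisense RNA ran from -1.14 to -2.59 and the flanking genes from -0.79 to 0.22; for PI3Kdi in FOXO1-GFP KO, Tnfrsf22 was at 0.20, as was Osbpl5.

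The promoter table from RefSeq (GRCm38.p6) held the window of 1 of the 3 members, Tnfrsf23. It is shown because Tnfrsf23 was lower in cells without FOXO1, a forkhead transcription factor, and this family binds the motif GTAAACA. The 250 bases before its start, chr7:143685876-143686125 on the minus strand, are printed 5′ to 3′, with capitals at the shorter core AAACA.
Tnfrsf23 promoter: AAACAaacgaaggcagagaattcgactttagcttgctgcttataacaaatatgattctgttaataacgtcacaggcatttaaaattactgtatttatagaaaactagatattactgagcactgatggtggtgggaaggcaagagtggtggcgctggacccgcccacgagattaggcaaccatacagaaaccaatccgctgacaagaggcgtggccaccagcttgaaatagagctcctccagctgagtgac

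On either strand, GTAAACA was absent from this window and was present in 3.17% of the 32851 windows of this length. AAACA, which is contained in GTAAACA, occurred once and was present in 46.4% of windows. These letters describe this window and say nothing about binding elsewhere in the gene.

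Of 20 listed genes of the TRAIL pathway, all in the table, none was called by limma in any of the 5 contrasts, in which 0% to 1.45% of all genes were called, so a count of 0 in 20 is near the background. Between the genotypes with PI3Kdi, 2 of the 20 had an unadjusted p under 0.05 (limma), beside 1353 of all 13283 genes, so this count too is near the background. In the other 4 contrasts 0 of the 20 did, beside 200 to 865 of all genes. TRAIL itself, Tnfsf10, was at 3.20 ± 1.04 FPKM in WT (SD, n = 3), at 2.62 ± 0.91 FPKM when WT cells were inhibited, at 2.81 ± 0.95 FPKM in FOXO1-GFP KO and at 2.20 ± 0.40 FPKM in its inhibited counterpart. The death receptor Tnfrsf10b was at 4.02 ± 0.36, 3.48 ± 0.22, 3.76 ± 0.44 and 3.24 ± 0.03 FPKM in the same order. Between the genotypes with PI3Kdi, the log2 fold change was -0.21 ± 0.31 for Tnfsf10 and -0.10 ± 0.12 for Tnfrsf10b, with limma adjusted p of 0.836 and 0.819. The median log2 fold change of the pathway in that contrast was -0.06, beside 0.01 for all genes.

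FPKM is a level per length, so the members can be placed among the 22 genes of the TNF receptor family in the table. For Tnfrsf22 and Tnfrsf23 the length includes sequence whose shared fragments are not counted, so their levels against other genes may be too low. Tnfrsf26 was 8th by mean FPKM in WT, 5th in WT+PI3Kdi, 12th in FOXO1-GFP KO and 9th in FOXO1-GFP KO+PI3Kdi. Tnfrsf23 was 17th, 12th, 20th and 18th, and Tnfrsf22 was 18th, 18th, 19th and 20th. The most abundant member of the family was Tnfrsf9, the costimulatory receptor 4-1BB, at 322 FPKM in WT. In WT, Tnfrsf23 was below the death receptor Tnfrsf10b in each library, whereas in WT+PI3Kdi it was above it in each.

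Of the 19 other TNF receptor family members, none was called by limma in any of the 5 contrasts, again near the background. Per contrast, 1 to 3 of the 19 had an unadjusted p under 0.05 (limma), beside 200 to 1353 of all 13283 genes. The median log2 fold change of the 19 was 0.01 between the genotypes with PI3Kdi, with a range from -1.25 to 1.17. Tnfrsf25, picked out after its values were seen, had group means in the same order as the members. They were low, at 0.193 (WT), 0.50 (WT+PI3Kdi), 0.083 (FOXO1-GFP KO) and 0.153 FPKM (FOXO1-GFP KO+PI3Kdi). With the pairs, which gave 2.57% of all genes called with PI3Kdi in WT against 2.79% in FOXO1-GFP KO, the costimulatory receptor Cd27 and Tnfrsf11a, the receptor for RANK ligand, rose with PI3Kdi in FOXO1-GFP KO, by 0.82 ± 0.15 (adjusted p = 0.00763) and 0.93 ± 0.21 (adjusted p = 0.0183). Without the pairs their adjusted p was 0.933. Among 12 TNF family ligands, Fasl, the ligand of the death receptor Fas, was higher in FOXO1-GFP KO+PI3Kdi than in WT+PI3Kdi by 0.63 ± 0.13 (limma adjusted p = 0.0435). That call was lost under 12 of 20 alternatives, with an adjusted p of up to 0.169. Ltb, which encodes lymphotoxin beta, rose with PI3Kdi when libraries were paired, by 0.68 ± 0.11 in WT (adjusted p = 0.00254) and by 0.97 ± 0.11 in FOXO1-GFP KO (adjusted p = 0.000448). Without the pairs its adjusted p was 0.772 and 0.571. Between genotypes Ltb was lower without FOXO1, with log2 fold changes of -1.11 ± 0.26 (vehicle) and -0.82 ± 0.26 (PI3Kdi). Neither was called (limma adjusted p = 0.131 and 0.227, or 0.0661 and 0.120 with the pairs). Its group means were 63.2 (WT), 101 (WT+PI3Kdi), 29.9 (FOXO1-GFP KO) and 60.2 FPKM (FOXO1-GFP KO+PI3Kdi).

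Finally, the genes most like each member over the 12 libraries were ranked by Pearson's r of log2(FPKM + 0.1), among 10700 genes whose mean reached 1 FPKM in at least one group. These correlations describe 4 groups of libraries and carry no test. For Tnfrsf26 they were Card6 (r = 0.974), Plxdc2 (0.971) and Ttc39c (0.969). For Tnfrsf22 they were Slamf6 (0.964), an inhibitory receptor of T cells, Ripor2 (0.958) and Acot9 (0.958). For Tnfrsf23 they were Tmem71 (0.980), Adamts6 (0.972) and Ssbp2 (0.966). The members correlated with each other at 0.942 for Tnfrsf26 and Tnfrsf23, 0.941 for Tnfrsf22 and Tnfrsf23 and 0.852 for Tnfrsf26 and Tnfrsf22.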

How the data were processed

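The 12 libraries were made from 300 ng of RNA with a stranded mRNA kit and sequenced as pairs of 75 bases. Per the study's methods and processing notes, the authors aligned reads to GRCm38.p6 with STAR 2.7.1a, counted them per gene (Ensembl 98), removed low genes (filterByExpr) and used edgeR for TMM scaling and for division by the summed length of a gene's exons. The values the authors deposited are FPKM with 2 decimals for 13283 genes, with 0 further value columns. Genes below their filter were not analysed here. GENCODE M21, on the same assembly, gave positions and lengths for 13276 genes.

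Groups came from the labels. Group means were fitted to log2(FPKM + 0.1) with limma 3.58.1 in R 4.3.3 (12 libraries, 4 groups, empirical Bayes with trend), which gave 5 contrasts, with calls at an adjusted p under 0.05 and a fold change over 1.5. The fit was tested on simulated data. Depth was recovered from genes of up to 400 bases, whose values must fall on whole reads. In held-out genes of up to 800 bases, 94.4 to 98.4% of values were whole, against 17.5 to 38.2% by chance, within rounding and 0.05 reads. Reads and counting errors are estimates from this depth and cover counting error only.

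The members and all gene lists were chosen with earlier results of these data known. Named genes were Foxo1, the members, list genes called in a contrast, Tnfsf10, Tnfrsf10b, the 2 nearest genes on each side and the 3 most alike genes; others were named after their values were seen. Same-numbered vehicle and PI3Kdi libraries deviated together within each genotype (r = 0.581 to 0.824 in WT, 0.587 to 0.764 in FOXO1-GFP KO). A block for them was therefore fitted as an alternative (consensus correlation 0.757). Across genotypes r was 0.488 to 0.714 for replicate 3, 0.216 to 0.369 for replicate 1 and -0.469 to -0.249 for replicate 2. No block across genotypes was fitted. Other alternatives were pseudocounts of 1 and 0.01 FPKM, a filter at a mean of 1 FPKM, no trend, only the groups compared, median-ratio scaling, voom on estimated reads, and each library left out. No 2 libraries of a group agreed within counting noise.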

Additional observations from a re-analysis of the deposited data

How the results depend on the processing

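The falls of Tnfrsf22, Tnfrsf23 and Tnfrsf26 in FOXO1-GFP KO+PI3Kdi against WT+PI3Kdi stayed called in all 60 values under an alternative, with an adjusted p of at most 0.0144 (limma). The alternatives refit the same values, so for Tnfrsf23 and Tnfrsf26 they are no more independent of the choice than the main fit. With each library left out in turn the falls of Tnfrsf22, Tnfrsf23 and Tnfrsf26 ran from -2.31 to -1.92, -2.86 to -2.42 and -1.27 to -1.10. With a pseudocount of 1 FPKM they were -1.25 for Tnfrsf22 and -1.83 for Tnfrsf23. With the replicate block their adjusted p was 0.00611, 0.00413 and 0.00179. The difference of responses of Tnfrsf26, near 0, ran from -0.14 to 0.047 and changed sign without WT replicate 3 (0.018), FOXO1-GFP KO replicate 3 (0.035) or FOXO1-GFP KO+PI3Kdi replicate 1 (0.047); that of Tnfrsf22 ran from -1.06 to -0.63 and that of Tnfrsf23 from -0.66 to -0.18, and that of Tnfrsf22 was called under no alternative. The PI3Kdi response of Tnfrsf22 in FOXO1-GFP KO was -0.00015 without FOXO1-GFP KO replicate 3, and ran up to 0.44 with another library left out. With a pseudocount of 1 FPKM, the PI3Kdi response was 0.72 for Tnfrsf22 in WT and 0.40 for Tnfrsf23 in FOXO1-GFP KO, and FOXO1-GFP KO against WT was -0.61 for Tnfrsf22 and -1.20 for Tnfrsf23.

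Numbers of called genes were less stable. With the replicate block they were 342 in place of 13 for the PI3Kdi response of WT, 370 in place of 6 for that of FOXO1-GFP KO, and 3 in place of 0 for the difference of responses; of the tested calls given in the text, it changed no others than those given there with the pairs. With only the groups compared they were 0, 0, 94 in place of 193 between the genotypes with PI3Kdi and 0 in place of 44 without it, and voom gave 22 with PI3Kdi in WT; the causes were not tested. Leaving out 1 library gave 1 to 10, 0 to 4, 111 to 196, 8 to 41 and 0 to 0 called genes in the 5 contrasts. The log2 ratio of Tnfrsf26 over Tnfrsf23 ran from 1.23 to 1.64 with a library left out (0.71 with a pseudocount of 1 FPKM), that of Tnfrsf26 over Tnfrsf22 from 0.65 to 1.10, and that of Tnfrsf23 over Tnfrsf22 from -0.58 to -0.23, lowest in size without FOXO1-GFP KO+PI3Kdi replicate 1. The exact p of the last was 0.2 to 0.3 without a WT+PI3Kdi library. Between the genotypes with PI3Kdi, 3 uncalled genes changed sign: Tnfsf10 (0.049, range from -0.38) and Cars (-0.046, range to 0.20) without WT+PI3Kdi replicate 1, and Osbpl5 (0.040, range from -0.20) without FOXO1-GFP KO+PI3Kdi replicate 1. Depth limits Tnfrsf22 and Tnfrsf23 in the knockout, where a library held as few as 17 and 20 reads.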
